A study of Mus musculus with 8 samples.

Results

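Nuclear receptors are transcription factors, many of them switched by a small lipophilic ligand, and a set of them was followed here as mouse embryonic stem cells were turned into cardiomyocytes in culture. The 10 receptor genes named were Esrrb, Esrra, Esrrg, Nr5a2, Nr0b1, Nr6a1, Nr2f1, Nr2f2, Ppara and Rxra, looked up by symbol in a table of 13540 genes. The table held 9 of the 10. The level of Ppara is not analysed here, as it has no entry, and only its promoter is counted below. Since every listed gene exceeds 1 RPKM at some stage (the lowest maximum is 1.00017 RPKM), no level can be given for it. The cells were of the 129/Ola strain, and the labels name no genetic change. The mRNA was sequenced at 4 stages, each labelled with 2 libraries. They were undifferentiated embryonic stem cells on day 0 (ESC), mesodermal cells on day 4 (MES), precursors of the heart on day 5.3 (CP) and, on day 10, cardiomyocytes (CM). Differentiation ran through embryoid bodies, which were dissociated and reaggregated with VEGF, Activin A and BMP4. A second dissociation was followed by plating, with basic FGF, FGF10 and again VEGF.

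The deposited table holds a single RPKM column for each stage (read number divided by gene model length in kilobases and by depth in units of 1000000 reads) and none for the single libraries. No SD, replicate check or test could therefore be had, and every difference below is a description of these stage values. In units of 1000000 reads, the depths estimated from the steps between low values were 75.3, 62.0, 64.8 and 88.5 in ESC, MES, CP and CM. Whole reads could be recovered for all 9 receptors, and intervals given below are 95% Poisson intervals (or, for ratios, exact binomial intervals), which cover counting error only. Marker genes were checked against the stage labels. The summed level of 6 pluripotency markers was 2024 RPKM in ESC and at most 89.6 RPKM later, that of 6 primitive streak markers was 355 RPKM in MES against at most 21.6 RPKM elsewhere, and that of 7 cardiomyocyte markers was 12.8, 9.54, 1032 and 8623 RPKM over the 4 stages. The sum of 6 cardiac precursor markers was 299 RPKM in CP and 338 RPKM in CM, against at most 67.4 RPKM before, so it does not set CP apart from CM. Markers of other cell types were also present, with sums of 302 RPKM for 8 endothelial and 274 RPKM for 6 blood markers in CP. Smooth muscle markers summed to 286, 19.7, 593 and 2452 RPKM over the stages, and fibroblast and matrix markers to 241 RPKM in CM. The smooth muscle sum in ESC was mostly Tagln and Acta2 (134 and 131 RPKM), with Myh11 at 0.193 RPKM. Endoderm markers summed to 78.3 RPKM in MES, with Cxcr4 at 56.9, Sox17 at 9.34 and Foxa2 at 6.88 RPKM. Neural markers summed to 112 RPKM in ESC, with Tubb3 at 97.2, Nes at 12.7 and Pax6 at 1.99 RPKM. A sum led by few genes does not show that the cell type was present. In bulk RNA, fewer cells of a type and less RNA per cell cannot be told apart.

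As background, a typical nuclear receptor pairs a zinc finger domain, which reads variants of the hexamer AGGTCA, with a ligand-binding domain that recruits coactivators or corepressors. Oestrogen-related receptors (ERRs) and Nr5a2 bind 1 hexamer with an extension on its 5′ side, while RXR partners such as the PPARs bind 2 hexamers in direct repeat. Esrrb and Nr5a2 are known from the network that maintains naive pluripotency, Nr6a1 from its repression of Pou5f1 at gastrulation, the COUP-TF genes Nr2f1 and Nr2f2 from atrial and venous identity, and Esrra, Esrrg and Ppara from the control of mitochondrial and fatty acid metabolism in heart muscle.

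Esrrb, Nr0b1 and Nr5a2 were the receptors that were highest in stem cells and under 0.2 RPKM in mesoderm. Because their levels drop at the same step, the 250 bases before their start sites are shown, from RefSeq on GRCm38.p6, with any AGGTCA hexamer in capitals. The windows are chr12:86360867-86361116 on the plus strand for Esrrb, chrX:86191525-86191774 on the plus strand for Nr0b1 and chr1:136960449-136960698 on the minus strand for Nr5a2. Esrrb and Nr5a2 each have a further start site in that table, and neither of those windows holds the hexamer. The Nr5a2 start shown was chosen because its window holds the hexamer, whereas for Esrrb the first listed start is shown.
Esrrb: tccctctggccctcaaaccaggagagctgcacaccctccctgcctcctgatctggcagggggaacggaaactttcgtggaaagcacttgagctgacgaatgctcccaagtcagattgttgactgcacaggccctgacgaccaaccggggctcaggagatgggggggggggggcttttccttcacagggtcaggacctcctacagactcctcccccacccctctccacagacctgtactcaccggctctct
Nr0b1: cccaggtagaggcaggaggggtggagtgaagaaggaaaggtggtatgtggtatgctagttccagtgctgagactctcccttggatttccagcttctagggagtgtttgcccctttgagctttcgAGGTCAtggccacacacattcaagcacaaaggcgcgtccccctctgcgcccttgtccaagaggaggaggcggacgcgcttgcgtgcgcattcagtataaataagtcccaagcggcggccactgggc
Nr5a2: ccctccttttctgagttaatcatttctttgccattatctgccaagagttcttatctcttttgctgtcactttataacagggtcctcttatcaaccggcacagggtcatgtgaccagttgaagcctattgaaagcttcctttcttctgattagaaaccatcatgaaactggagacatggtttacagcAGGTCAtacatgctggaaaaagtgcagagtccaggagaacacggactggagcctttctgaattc
Read in the direction of the gene, the hexamer lies at bases 126 to 121 before the start of Nr0b1 and 64 to 59 before that of Nr5a2. The window of Esrrb holds none. Searched on both strands over 250 bases before to 50 after each start, AGGTCA occurred in 4 of the 10 receptor genes (Nr5a2, Nr0b1, Nr6a1 and Rxra), beside 18.1% of all 27025 genes in the RefSeq table. Per window this was 4 of 18 beside 16.3% of 32851, since these genes have more start sites each. With a preceding A (AAGGTCA), which lies within the hexamer matches, it occurred in 2 (Nr6a1 and Rxra), beside 5.38%. The monomer site TCAAGGTCA, the direct repeat without a spacer (AGGTCAAGGTCA) and the repeat with 1 base between (AGGTCANAGGTCA) occurred in 0 of the 10, beside 0.466%, 0.0037% and 0.0481% of all genes. These are letter matches in short windows and say nothing of binding. The 18 start site windows of the 10 genes had a median GC content of 54.8% beside 52.7% over all 32851 windows. They ranged from 42.0% at the Nr5a2 start shown above to 83.0% at a start of Rxra.

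Esrrb (ENSMUSG00000021255, chromosome 12) encodes an ERR without a known natural ligand. It stood at 85.2 RPKM in ESC (95% interval 84.3 to 86.0), 0.194 RPKM in MES, 0.337 RPKM in CP and 2.39 RPKM in CM. In ESC it was the most abundant of the 31 nuclear receptor genes in the table and ranked 516 of all 13540 genes, and in MES it was 440.2 times lower (349 to 563). After this low value, CM was 7.09 times CP (5.92 to 8.55), a level that rests on 1269 reads. In CM all 6 pluripotency markers were under 1 RPKM, with a sum of 0.683 RPKM.

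Nr0b1 (ENSMUSG00000025056, chromosome X), also called Dax1, encodes a receptor that lacks the usual DNA-binding domain and acts as a corepressor of other receptors. Its values were 70.9 RPKM in ESC (69.5 to 72.3), 0.0625 RPKM in MES, 0.0683 RPKM in CP and 0.0125 RPKM in CM. Outside ESC these rest on 7, 8 and 2 reads, and their intervals (0.0251 to 0.129, 0.0295 to 0.135 and 0.00151 to 0.0451 RPKM) overlap from neighbour to neighbour. The ratio of CM to CP was 0.183, with an interval from 0.0189 to 0.917. Nr0b1 was the second receptor by level in ESC, and its MES level was 1134 times lower (550.3 to 2822), the largest ratio of that step among the 9. This interval overlaps that of Esrrb (349 to 563), and on the log2(RPKM + 1) scale Esrrb dropped more (-6.17 against -6.08).

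Nr5a2 (ENSMUSG00000026398, chromosome 1), also called Lrh1, encodes a phospholipid-binding receptor that can activate Pou5f1. It had 16.0 RPKM in ESC (15.5 to 16.5), 0.0590 RPKM in MES, 0.0873 RPKM in CP and 0.113 RPKM in CM. The 3 later values rest on 11, 17 and 30 reads and have overlapping intervals in that order, and MES was 271 times below ESC (151 to 544). In contrast to Esrrb, the CM to CP ratio of Nr5a2 was 1.29 with an interval (0.690 to 2.50) that includes 1. Unlike its partners it was only the ninth of the 31 receptors by level in ESC. This rank depends on the model length, which the reads put at 3007 bases against 5899 in GENCODE M21.

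**Figure D1:**
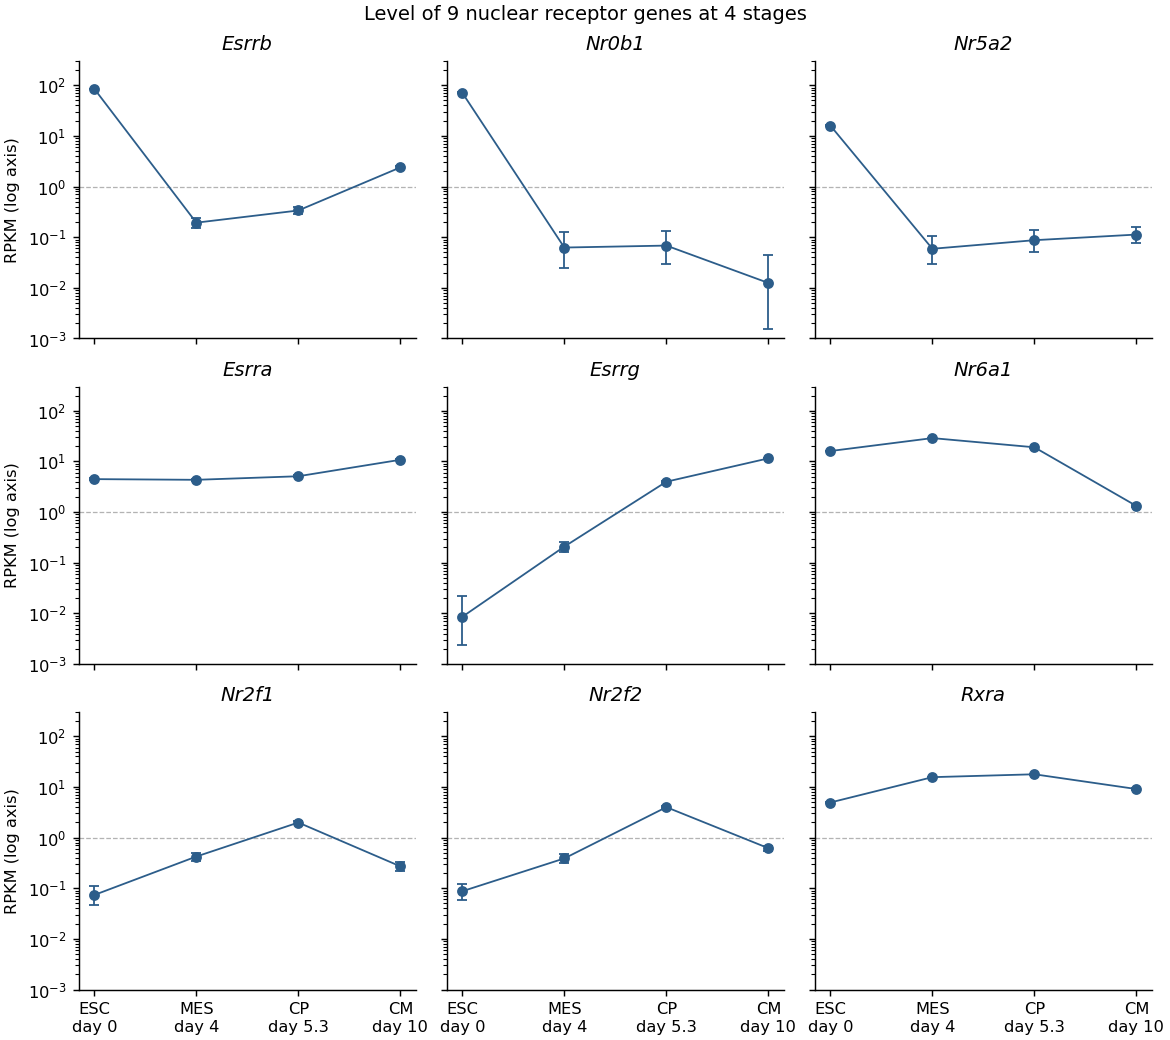
RPKM on a log axis against stage for the 9 receptor genes, with 95% Poisson intervals for counting error as bars and a dashed line at 1 RPKM. Esrrb, Nr0b1 and Nr5a2 drop below 1 RPKM from MES on, Esrrb returns to 2.39 RPKM in CM, Nr2f1 and Nr2f2 peak in CP, Nr6a1 is at 1.32 RPKM in CM, and Esrrg climbs from 0.00855 to 11.5 RPKM.

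On the log2(RPKM + 1) scale, where at least 1 was counted as 2-fold, 3 of the 9 receptors were lower in MES than in ESC, beside 11.2% of all genes, and 1 was higher, beside 11.1%. The differences were -6.17 for Esrrb, -6.08 for Nr0b1 and -4.01 for Nr5a2, and at most 0.539% of all genes had a lower difference than any of these. The median over the 9 was 0.26, beside 0.05 over all genes. The 9 were chosen with their levels known, so these counts describe the choice as well as the cells.

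The other genes of the naive network were lower in MES in most cases, with 15 of 17 at least 2-fold lower and 1 higher, beside 11.2% and 11.1% of all genes, and a median difference of -4.35. Zfp42, a marker of naive cells, differed by -7.17, the threonine dehydrogenase gene Tdh by -6.95, Fbxo15, a Pou5f1 target, by -6.51 and Klf2, a Kruppel-like factor, by -6.38. Pou5f1 itself, with 76.4 RPKM left in MES, differed by only -3.12. For Sall4, a zinc finger factor, ESC had 107 RPKM and MES 128 RPKM. Tbx3, the 1 gene that was higher, was named after its value was seen, with 15.8 and 43.4 RPKM. Among the 17, Ncoa3, a coactivator of Esrrb in stem cells that was also named after its values were seen, went from 42.4 RPKM in ESC to 17.2, 13.3 and 11.4 RPKM, and its difference from ESC to MES was -1.25 beside -6.17 for Esrrb.

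Nr6a1 (ENSMUSG00000063972, chromosome 2), the germ cell nuclear factor, an orphan receptor that silences Pou5f1, was highest in mesoderm and lowest in cardiomyocytes. It stood at 16.0 RPKM in ESC (15.7 to 16.4), 28.9 RPKM in MES (28.4 to 29.4), 19.0 RPKM in CP (18.6 to 19.4) and 1.32 RPKM in CM (1.23 to 1.41). None of these counting intervals overlap. MES was 1.80 times ESC, a log2 difference of 0.81 that stays under 2-fold. In MES Nr6a1 was the second of the 31 receptors by level, with Rxrb next at 28.3 RPKM. This rank depends on the model length, which the reads put at 7504 bases against 10824 in GENCODE M21. CM was 14.4 times below CP (13.4 to 15.5), a log2 difference of -3.11, and 0.362% of all genes had a lower one. Pou5f1 stood at 670.0, 76.4, 5.65 and 0.0429 RPKM over the same stages.

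The COUP-TF genes Nr2f1 (ENSMUSG00000069171, chromosome 13) and Nr2f2 (ENSMUSG00000030551, chromosome 7), which encode closely related receptors, were low at every stage and highest in cardiac precursors. Nr2f2 stood at 0.0873 RPKM in ESC, 0.388 RPKM in MES, 3.99 RPKM in CP (3.77 to 4.22) and 0.618 RPKM in CM. Nr2f1 stood at 0.0736 RPKM in ESC, 0.422 RPKM in MES, 1.98 RPKM in CP (1.82 to 2.15) and 0.271 RPKM in CM. The 2 genes thus shared their peak, but the order of the other stages differed, with CM above MES for Nr2f2 and below it for Nr2f1. Counting intervals of neighbouring stages did not overlap for either gene. The step from MES to CP was 10.3 times for Nr2f2 (8.50 to 12.5) and 4.69 times for Nr2f1 (3.84 to 5.77).

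Their relative Nr2f6 encodes a receptor also called EAR2 and was far more abundant, at 25.0, 38.5, 51.2 and 27.9 RPKM. It made up 99.4%, 97.9%, 89.6% and 96.9% of the summed level of the 3 genes over the stages. Nr2f1 and Nr2f2 together thus had their largest part in CP, with 3.47% and 6.98%. In GENCODE M21, 7.46% of the exon bases of Nr2f2 and 2.42% of those of Nr2f1 lie opposite exons of the antisense genes B130024G19Rik and A830082K12Rik. Strand use is not stated, so reads of these partners cannot be told apart.

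From MES to CP, 3 of the 9 receptors were at least 2-fold higher (Esrrg, Nr2f1 and Nr2f2), beside 8.91% of all genes, and 0 were lower, beside 3.91%. The log2 differences were 2.04, 1.07 and 1.85, and the median over the 9 was 0.18, beside -0.03 over all genes. Of 14 atrial, ventricular and vascular genes linked to COUP-TFII, the protein of Nr2f2, 7 were higher in CP and 0 lower, with a median of 0.69. The atrial light chain gene Myl7 was higher by 4.11 and the T-box gene Tbx5 by 2.93. The ventricular genes Myl2 and Irx4 were higher by 2.69 and 2.32. The count of 7 thus pools genes of atrium and ventricle, and it gives no direction for a link to Nr2f2. Of the vascular genes, Dll4 and Hey2 were higher by 2.31 and 1.17. Nrp2 and Ephb4, found in veins, differed by -0.47 and 0.14, and Nrp1, Notch1 and Hey1 also stayed under 2-fold. Nppa, the atrial natriuretic peptide gene, stood at 0.194 RPKM in MES, 0.232 RPKM in CP and 693 RPKM in CM, where Nr2f2 was low. Endothelial markers also had their highest sum in CP: 8 of 8 were in the table and 7 were at least 2-fold higher in CP than in MES. Their sums were 22.5, 1.76, 302 and 104 RPKM over the stages, and 16.2 RPKM of the ESC sum came from Pecam1. Nr2f2 was at 15.5% of its maximum in CM. From CP to CM, 4 of the 8 endothelial markers were at least 2-fold lower and 4 stayed under 2-fold. Among them, Tek went from 27.1 to 2.49 RPKM and Pecam1 from 24.9 to 22.4 RPKM. Blood markers were also higher in CP than in MES (6 of 6, with sums of 1.32, 6.54, 274 and 10.6 RPKM over the stages). Of these, the globin genes Hbb-bh1 and Hba-x were at 0 in ESC and Hba-x also in MES. Most markers of cardiomyocytes (7 of 7), cardiac precursors (5 of 6), smooth muscle (4 of 5) and fibroblasts and matrix (3 of 5) were also at least 2-fold higher in CP. Of 5 endoderm markers, 1 was higher and 3 lower, and of 3 neural markers 1 was higher and 1 lower. The part of these cell types in the levels of Nr2f1 and Nr2f2 was not tested.

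The ERR genes changed places over the differentiation. In ESC, Esrrb supplied 95.0% of their summed 89.7 RPKM. In MES the sum was 4.74 RPKM, of which Esrra made up 91.5%. In CP, Esrra and Esrrg made up 54.2% and 42.2% of 9.41 RPKM, and in CM 43.7% and 46.6% of 24.7 RPKM, with the remaining 9.68% from Esrrb. The group was therefore less abundant in CM than in ESC, and a different gene led it.

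Esrra (ENSMUSG00000024955, chromosome 19) encodes the ERR most widely found in tissues with a high energy demand. It stood at 4.47 RPKM in ESC (4.28 to 4.67), 4.33 RPKM in MES (4.13 to 4.55), 5.10 RPKM in CP (4.88 to 5.33) and 10.8 RPKM in CM (10.5 to 11.1). The intervals of ESC and MES overlap, and CM was 2.11 times CP (2.01 to 2.22). With the pseudocount this difference was 0.95, just under the 2-fold limit (it passes under 3 of 6 other settings, with up to 1.11), while against ESC it was 1.10. Over the 4 stages its range of 1.14 was the smallest among the 9 receptors.

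Esrrg (ENSMUSG00000026610, chromosome 1) encodes an ERR with a role in the switch of the heart to oxidative metabolism, and its level was higher at each stage than at the one before. It stood at 0.00855 RPKM in ESC, where it rests on 4 reads (0.00233 to 0.0219 RPKM), 0.208 RPKM in MES (0.165 to 0.259), 3.98 RPKM in CP (3.78 to 4.18) and 11.5 RPKM in CM (11.2 to 11.8). No neighbouring intervals overlap. CP was 19.1 times MES (15.3 to 24.2) and CM was 2.89 times CP (2.74 to 3.06). The order of Esrrg and Esrra in CM is not read, since the model length that the reads imply is 6208 bases for Esrrg, as in GENCODE M21, but 6059 bases for Esrra against 4387 there, which bears on its level and on its share of the group.

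**Figure D2:**
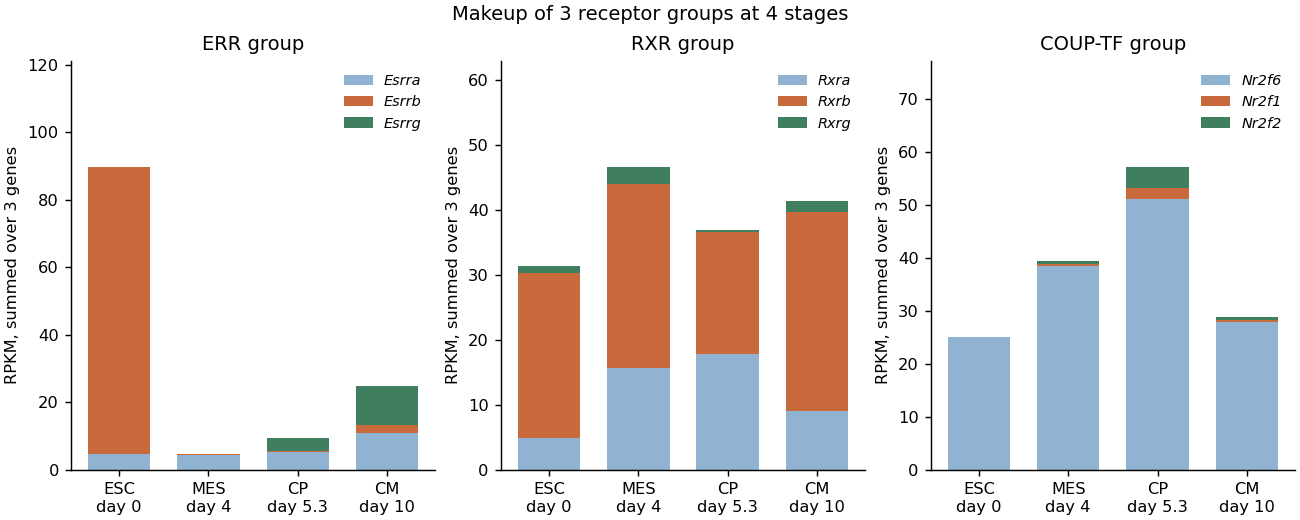
RPKM summed over 3 genes against stage for the ERR, RXR and COUP-TF groups, as bars stacked by gene. The ERR bar is nearly all Esrrb in ESC (95.0%) and mostly Esrra and Esrrg in CM, Rxra nearly equals Rxrb in CP only, and Nr2f6 fills at least 89.6% of each COUP-TF bar.

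Rxra (ENSMUSG00000015846, chromosome 2) encodes the retinoid X receptor alpha, the shared partner of PPARs, retinoic acid receptors and the thyroid hormone receptor. It stood at 4.93 RPKM in ESC (4.72 to 5.15), 15.6 RPKM in MES (15.2 to 16.0), 17.8 RPKM in CP (17.4 to 18.2) and 9.09 RPKM in CM (8.82 to 9.36), and none of the intervals overlap. On the log2(RPKM + 1) scale it was the 1 receptor of the 9 that was at least 2-fold higher in MES than in ESC. Its log2 difference was 1.49 and its ratio 3.16 (3.01 to 3.33). The plain ratios of Esrrg, Nr2f1 and Nr2f2 were larger (24.3, 5.74 and 4.45), from ESC levels under 0.1 RPKM. From CP to CM it was lower by a ratio of 1.96 (1.88 to 2.04), a log2 difference of -0.90, which stays under 2-fold but is -1.06 with each stage scaled to the same sum. Its relative Rxrb was the more abundant gene at every stage, with 25.3, 28.3, 18.9 and 30.6 RPKM. In CP the 2 genes were closest, with 48.2% and 51.0% of the summed level of the 3 RXR genes, against 15.7% and 80.6% in ESC. Rxrg, the other relative, stood between 0.296 and 2.69 RPKM.

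From CP to CM, 2 of the 9 receptors were at least 2-fold higher (Esrrb and Esrrg, with log2 differences of 1.34 and 1.33), beside 11.3% of all genes. The 3 that were lower were Nr6a1, Nr2f1 and Nr2f2 (-3.11, -1.23 and -1.62), beside 12.8% of all genes. The median over the 9 was -0.08, beside -0.15 over all genes. From ESC to CM, 2 were higher (Esrra and Esrrg), beside 22.2%, and 4 lower (Esrrb, Nr0b1, Nr5a2 and Nr6a1), beside 23.4%. Successive comparisons share a stage, so their counts are not independent.

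**Figure D3:**
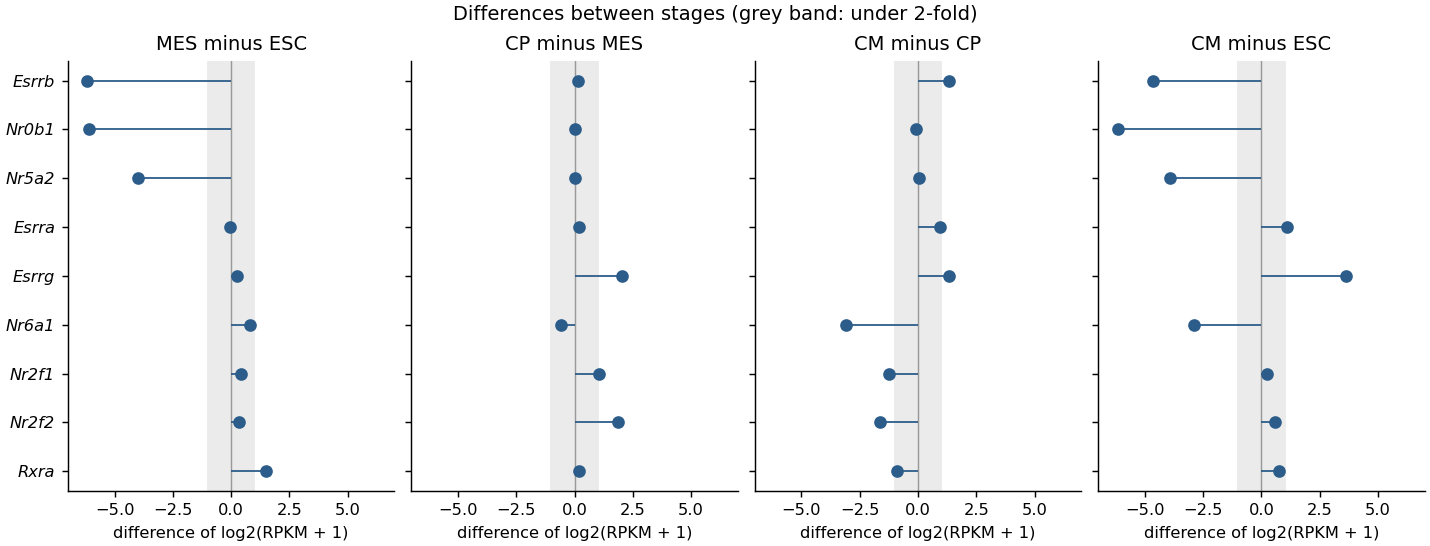
Difference of log2(RPKM + 1) for each of the 9 receptors in 4 comparisons of stages, as points joined to 0, with the range under 2-fold in grey. Esrrb, Nr0b1 and Nr5a2 lie at -4.01 or below in MES minus ESC, and Nr6a1 lies at -3.11 in CM minus CP.

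Many target genes of the metabolic receptors had a higher level in CM than in CP. Of 18 ERR target genes of mitochondrial energy metabolism in the table, the difference from CP to CM was 2-fold or more upward in 11 and downward in 0, beside 11.3% and 12.8% of all genes, with a median of 1.20 beside -0.15. The other 7 stayed under 2-fold. Cox6a2, a heart and muscle subunit of cytochrome oxidase, went from 5.24 to 229 RPKM. Pdk4, a kinase that inhibits pyruvate dehydrogenase, went from 0.572 to 24.4 RPKM and the mitofusin gene Mfn2 from 11.2 to 43.6 RPKM. The most abundant members, the ATP synthase genes Atp5a1 and Atp5b, stood at 274 and 654 RPKM and at 189.9 and 406 RPKM. From ESC to CM the count was 10 higher and 0 lower, beside 22.2% and 23.4% of all genes. In ESC, Atp5b was at 373 RPKM and its difference between ESC and CM was 0.12.

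Ppara had no value, but 25 of 28 genes of fatty acid oxidation that PPARA is known to activate did. Of these 25, CM exceeded CP by 2-fold or more in 15, and CP exceeded CM by as much in 0, beside 11.3% and 12.8% of all genes, with a median difference of 1.30. The other 10 stayed under 2-fold, among them Plin5, a lipid droplet gene named after its values were seen, with 0.485 RPKM in CP and 0.122 RPKM in CM. Cpt1a, a carnitine palmitoyltransferase of the outer mitochondrial membrane, went from 0.164 to 21.2 RPKM, the lipoprotein lipase gene Lpl from 4.26 to 38.7 RPKM and Vldlr, a lipoprotein receptor, from 6.29 to 53.8 RPKM. The most abundant were Acaa2, a thiolase, with 39.9 and 148 RPKM, and Cpt1b, the muscle form of the transferase, with 16.7 and 93.1 RPKM. Pdk4 and Acadm are on both lists, and Esrra is on the ERR list. Ppard, a relative of Ppara with many shared targets, was in the table at 7.51, 8.91, 7.33 and 13.3 RPKM, a difference from CP to CM of 0.78. Cell type markers moved with them. From CP to CM, 7 of 7 cardiomyocyte markers differed upward by 2-fold or more, as did 5 of 5 fibroblast and matrix markers, with sums of 25.9 and 241 RPKM and with Lum at 0 in CP. Of 5 smooth muscle markers, 3 did, with sums of 593 and 2452 RPKM. Their part in the levels of these targets was not tested.

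Cofactors were divided. Of 14 coactivator genes, 7 had a level in CM at least 2-fold above ESC and 2 one below it by as much, beside 22.2% and 23.4% of all genes, with a median of 0.60. Ppargc1a and Ppargc1b, the PGC-1 coactivators of ERRs and PPARs, stood at 0.00424 and 0.576 RPKM in ESC and at 7.40 and 14.3 RPKM in CM. Their CP values were 0.696 and 0.658 RPKM, so of the log2 differences of 3.06 and 3.28 between ESC and CM, 2.31 and 3.20 lay between CP and CM. Lpin1, a phosphatase that also acts as a PGC-1 partner, went from 4.01 in ESC to 26.8 RPKM in CM. Pprc1, the PGC-1 relative linked to growth, went the other way, with 46.6, 35.0, 16.8 and 9.04 RPKM. Carm1, an arginine methyltransferase, stood at 49.0, 79.8, 44.7 and 26.9 RPKM.

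Of 10 corepressor genes, 1 was higher in CM than in ESC and 1 lower, beside the same 22.2% and 23.4%, with a median of 0.21. Zfpm2, a cardiac cofactor of GATA4 and of COUP-TFII, was higher by 2.26, with 0.435 and 5.88 RPKM. Sin3a, a histone deacetylase scaffold, was lower by a log2 difference of -1.48. Lcor and Nrip1, which bind receptors that carry ligand, differed by 0.91 and 0.86, and Tbl1x, a subunit of the NCoR complex, stood between 22.5 and 32.3 RPKM at all stages. From CP to CM, 0 of the 10 corepressors differed by 2-fold, and 5 of 14 coactivators were higher and 0 lower, beside 11.3% and 12.8% of all genes.

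**Figure D4:**
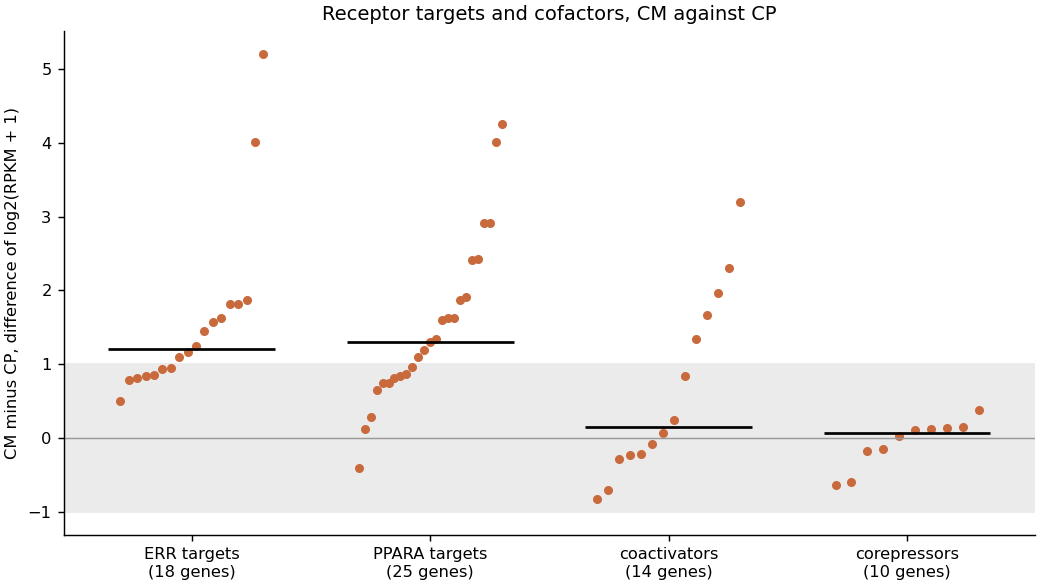
CM minus CP as a difference of log2(RPKM + 1) for the genes of 4 lists, each point 1 gene sorted within its list, with the median as a black line and the range under 2-fold in grey. The medians are 1.20 for ERR targets, 1.30 for PPARA targets, 0.15 for coactivators and 0.07 for corepressors.

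Among all nuclear receptors, the 9 genes made up less of the total at each stage. They made up 51.4% of the summed 385 RPKM of the 31 receptor genes in ESC, 23.8% of 210.3 RPKM in MES, 23.0% of 228 RPKM in CP and 11.4% of 315 RPKM in CM. Of 49 mouse nuclear receptor genes looked up, 18 had no entry. All 9 had a range of at least 2-fold over the stages, as did 23 of the 31 receptors and 63.2% of all genes. The leading receptor was Esrrb in ESC, Nr2f6 in MES and CP (38.5 and 51.2 RPKM) and the thyroid hormone receptor gene Thra in CM (45.9 RPKM). Of the retinoic acid receptors, Rarg ranked 3 in ESC at 44.0 RPKM and stood at 7.05 RPKM in CM, while Rarb had its peak in CP at 11.1 RPKM, as Nr2f1, Nr2f2 and Rxra did. Of the 31 receptors, 5, 6, 7 and 13 were highest in ESC, MES, CP and CM, and of the 9 receptors 3, 1, 3 and 2.

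**Figure D5:**
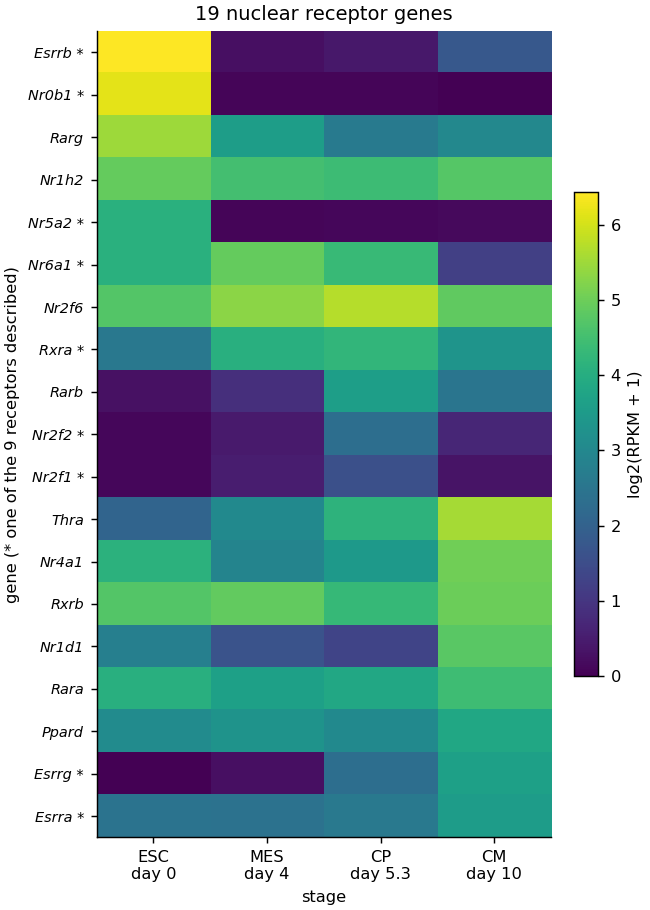
log2(RPKM + 1) by stage of 19 nuclear receptor genes, which are the 9 receptors, marked by an asterisk, and the others that reach 10 RPKM at some stage, sorted by the stage of the highest value. Esrrb and Nr0b1 are the brightest cells of the ESC column, and Thra is the brightest of the CM column.

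Genes with the most similar course were found by the Euclidean distance between log2(RPKM + 1) values centred on their mean over the 4 stages, over all named genes of the table. Nearest to Nr0b1 was Dnmt3l, a cofactor of DNA methylation (distance 0.17), with 90.5, 0.337, 0.238 and 0.116 RPKM. Nearest to Esrrb was the metallothionein gene Mt2 (0.83), at 551, 7.59, 7.94 and 10.8 RPKM, which was also among the 3 nearest to Nr0b1. For Nr5a2 it was Adap1 (0.13), with 18.1 RPKM in ESC and at most 0.306 RPKM later. The next genes show the later courses. Esrrg was closest to Grina (0.19) and then to Cd36, the fatty acid transporter (0.19), which stood at 0, 0.166, 3.46 and 12.5 RPKM. Nearest to Nr2f2 were Nxf7 (0.19) and the homeobox gene Hoxb4 (0.21), both highest in CP. Nearest to Nr2f1 was Myo7a (0.10), to Nr6a1 Slc9a3r1 (0.39), to Esrra Fastk (0.03) and to Rxra Lphn2 (0.11). With 4 values per gene such likeness is loose, and only 4 of the 27 nearest genes were the same with a pseudocount of 0.1 RPKM.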

How the data were processed

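Per the labels' protocols, mRNA was isolated from TRIzol extracts, and PCR-enriched libraries were run on an Illumina GAIIx. The submitters' processing notes name Novoalign 2.07.00 and the build mm9. The authors deposited RPKM, a single column for each stage. Not given in the sources used here are the counter, the annotation, the filter on genes, whether strand was used and how a stage's 2 libraries became 1 value.

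Levels were compared as log2(RPKM + 1), which understates differences of low genes, and at least 1 was counted as 2-fold. The limma tests planned for separate libraries were not run because the table has no column per library. Depth ratios were taken from the steps between low values: whole reads in every stage (tolerance 1e-06 of the value or 0.002 reads, whichever was larger) were found for 100% of 1819 low genes and for 1.87% with wrong ratios. Absolute depth came from GENCODE M21 exon lengths, and 27.7% of 1771 genes lay within 0.2% of it. Recovered reads are the smallest whole numbers that fit, so true counts may be a common multiple and the intervals then too wide. The gene model length they imply differs most from M21 for Nr5a2 (3007 against 5899 bases), Nr2f2 (4863 against 8625), Nr6a1 (7504 against 10824) and Esrra (6059 against 4387), which bears on their reads and on levels compared between genes.

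The receptors and gene lists were chosen with earlier results of these data known. The 10 receptors were named, with the other receptors that reach 10 RPKM or differ by 2-fold, and of each list the 4 largest differences in the comparison described and the 2 highest means. A few genes that these rules name are not reported here. Of the list genes, 2 (Perm1 and Tfcp2l1) were matched by gene ID. Of the 32-base words of each receptor's longest M21 transcript, at most 3.21% occur in other genes (Nr2f1). The single hexamer and its A-extended form were added to the motifs after the data were seen. Scripts were tested on simulated data. Python 3.11.15, numpy 2.4.6, pandas 2.3.3 and scipy 1.17.1 were used.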

Additional observations from a re-analysis of the deposited data

How the results depend on the processing

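Alternatives were pseudocounts of 0.1 and 0.5 RPKM, a minimum of 4-fold, each stage scaled to a sum of 1000000, quantile normalization across stages and only genes reaching 3 RPKM. All 18 differences of at least 2-fold kept their sign under the 6 alternatives, wherever the gene was kept. Only scaling and quantile normalization could have changed a sign, since pseudocounts, the 4-fold minimum and the filter cannot. The number of receptors higher in MES than in ESC was 4 with a pseudocount of 0.1 RPKM, 2 with scaled stages and 0 at 4-fold, against 1. In CM against ESC it was 4 with a pseudocount of 0.1 RPKM, 3 with scaled stages and 1 at 4-fold, against 2. At 4-fold, 1 receptor was higher in CP than in MES (against 3), and from CP to CM 0 were higher (against 2) and 1 was lower (against 3). From CP to CM, 3 were higher with a pseudocount of 0.1 or 0.5 RPKM and with quantile normalization, as Esrra was added. With scaled stages, 4 were lower from CP to CM, as Rxra was added. Against ESC, the pseudocount of 0.1 RPKM adds genes with low values, and a stricter minimum keeps fewer by its construction. Nr2f1 in CP against MES fell under 2-fold with quantile normalization (0.81 against 1.07). The filter at 3 RPKM removes Nr2f1. Esrra in MES against ESC was -0.04 and ranged from -0.11 to 0.01, so no direction is given for it. Scaling moved the median of all genes in CM against CP from -0.15 to -0.29. No paired analysis was possible because the table has no column per library, and leaving out a replicate was not possible for the same reason. Levels under about 0.1 RPKM rest on 32 reads or fewer.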

Other observations

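Of the 22 receptors other than the 9 genes above, 9 were at least 2-fold higher in CM than in CP, 2 were lower and 11 stayed under 2-fold, beside 11.3% and 12.8% of all genes that were higher and lower. Receptors of the circadian clock were among the 9. Nr1d1 and Nr1d2, the REV-ERB repressors, stood at 1.48 and 1.49 RPKM in CP and at 26.4 and 8.98 RPKM in CM. Rora, an activator that shares their binding sites, stood at 1.06 RPKM in CP and at 7.75 RPKM in CM. Repressors and an activator of the clock were thus higher side by side. Nr1d1 differed by 3.47 on the log2 scale, more than any of the 9 receptors in that step. Each stage is a single value, and the time of day of harvest was not given in the sources used here.

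Hormone receptors followed other courses. Thra, which mediates the action of thyroid hormone on heart muscle, was higher at each stage than at the one before, with 3.20, 7.31, 16.9 and 45.9 RPKM, and its steps were 0.98, 1.11 and 1.39. The glucocorticoid receptor gene Nr3c1 stood at 1.60, 1.49, 0.857 and 5.27 RPKM. The progesterone receptor gene Pgr exceeded 1 RPKM in MES alone, with 0.0862, 1.80, 0.126 and 0.00710 RPKM. Nr1h5, a relative of the bile acid receptor, did so in CP alone, with 2.25 RPKM there and at most 0.108 RPKM elsewhere. Nr4a1, an immediate-early gene, stood at 16.4, 6.43, 10.1 and 31.7 RPKM.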
